A study of Homo sapiens with 6 samples.

Results

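Translation factors are the proteins that bring a ribosome to the start of an mRNA and then drive it along the coding sequence. The 46 genes described here encode initiation factors (symbols starting with EIF) and cytosolic elongation factors (EEF). They were taken by symbol from a deposited table of 35009 genes, which holds all 46, each in 1 row. All 46 also passed the filter on low counts, as did 19944 genes in all.

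The RNA came from the THP-1 line, established from a human monocytic leukaemia, in a study of macrophages, atherosclerosis and MCT4. MCT4, encoded by SLC16A3, exports lactate and protons from glycolytic cells. The 3 control libraries are titled oxldl with the genotype control, and the 3 siMCT4 libraries are titled oxldl_siMCT4 with the genotype MCT4 deficiency, so the titles put both groups under ox-LDL, the modified lipoprotein that macrophages take up in the artery wall. The labels used here give no dose or time, and are silent on any non-targeting siRNA in the controls. They do not say whether libraries of a group came from separate cultures, so the p-values measure the spread between these libraries, which may be technical.

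In background terms, eIF2 carries the initiator tRNA to the small ribosomal subunit, and eIF2B reloads eIF2 with GTP. The many-subunit factor eIF3 holds the small subunit in a form ready for mRNA. The eIF4 factors recognise the cap and unwind the mRNA leader, and eIF5 and eIF5B complete the start. eEF1A then delivers each aminoacyl-tRNA, the eEF1B subunits reload eEF1A with GTP, and eEF2 moves the ribosome by a codon. Many mRNAs of ribosomal proteins and elongation factors begin with a C and a run of pyrimidines, the terminal oligopyrimidine or TOP tract, through which LARP1 and mTORC1 control their translation and stability.

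Total counts ran from 61880619 to 69181938 per library. SLC16A3 was at 115, 101 and 108 CPM (counts relative to the library total after TMM scaling, which evens out composition between libraries) in control libraries 1, 2 and 3, and at 10.8, 11.05 and 13.4 CPM in siMCT4 libraries 1, 2 and 3. The siMCT4 level was 9.19-fold lower (log2 change -3.20 ± 0.102 SE). A permutation test, exact and two-sided, returned p = 0.10, which is as small as 3 libraries against 3 can give. Macrophage markers were present, 11 of 11 at a mean of at least 1 CPM, with summed levels of 5790 to 5866 CPM in controls and 4894 to 5138 CPM in siMCT4. Single markers moved apart in the edgeR test used below. CD14 (log2 change -1.99), FCGR1A (-1.66), CSF1R (-0.87), LYZ (-0.47), TYROBP (-0.33) and ITGAM (-0.17) were called lower, and PTPRC (0.33) higher. CD68, ITGAX, SPI1 and FCER1G were not called. Of 5 T cell markers only CD8A was found in the table, at 0 CPM in every control library and at most 0.0626 CPM in siMCT4. In controls against siMCT4, summed markers ran from 529.7 to 543 against 338 to 348 CPM for endothelium, nearly all of it PECAM1, and from 157 to 163 against 69.2 to 114 CPM for granulocytes. They ran from 5.40 to 7.89 against 8.08 to 35.1 CPM for fibroblasts, from 2.70 to 3.15 against 8.94 to 10.1 CPM for B cells, and from 0.141 to 0.285 against 0.240 to 5.03 CPM for epithelium. Single genes made much of the fibroblast and epithelial ranges. COL1A2 was at 29.6, 25.6 and 0 CPM in siMCT4 libraries 1, 2 and 3 and at 0 CPM in every control library. KRT18 was at 2.69, 1.61 and 0 CPM in siMCT4 libraries 1, 2 and 3. The part of these shifts in the results was not tested. Transcripts rich in G and C were lower in siMCT4 libraries 1 and 2: among 1295 well-covered genes of at least 60% GC, siMCT4 libraries 1, 2 and 3 had median log2 ratios of -0.54, -0.58 and -0.18 over the mean of the controls. Each member was therefore also fitted with a correction for GC content. SLC16A3, itself 62.7% GC, had a log2 change of -2.76 with that correction.

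Sequences at annotated transcript starts are shown first, since members that begin with a pyrimidine tract and members that do not are counted apart further on. Each line runs from 10 bases before the start to 15 bases from it (RefSeq, GRCh38.p14, on the gene's strand), and capitals mark a C at the first transcribed base with the unbroken pyrimidine run that follows it, at least 4 long. Lower levels in siMCT4 were called for the first 6 genes, EIF3M and EIF4A2 carry a tract and were not called, and the last 4 carry none.
EEF2 (chr19:3985449-3985473, minus strand): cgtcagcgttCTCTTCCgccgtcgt
EEF1A1 (chr6:73521018-73521042, minus strand): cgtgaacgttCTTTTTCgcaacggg
EEF1B2 (chr2:206159885-206159909, plus strand): ctcttcgggtCCTTTTTCCTCTCTT
EIF3F (chr11:7987327-7987351, plus strand): cttccgcctcCTTCTTTCTCgacaa
EIF4B (chr12:53006446-53006470, plus strand): tcatccgggtCTTTTgcgttctctt
EIF2S3 (chrX:24054946-24054970, plus strand): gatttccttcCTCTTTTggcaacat
EIF3M (chr11:32583821-32583845, plus strand): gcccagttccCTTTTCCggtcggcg
EIF4A2 (chr3:186783567-186783591, plus strand): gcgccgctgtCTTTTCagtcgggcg
EEF1G (chr11:62573877-62573901, minus strand): cgggcggcttactttgcggcagcgc
EIF1 (chr17:41688875-41688899, plus strand): ccgcccctctgccccagtcactgag
EIF4E (chr4:98929119-98929143, minus strand): tggagcggttgtgcgatcagatcga
EIF4A3 (chr17:80147114-80147138, minus strand): cggcagcggcacagcgaggtcggca

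More translation factor genes were lower than higher in siMCT4 libraries. Of the 46, 22 were called lower, 7 higher and 17 neither (edgeR's quasi-likelihood test, Benjamini-Hochberg adjusted p under 0.05). Of all 19944 genes tested, 41.4% were called, 20.8% lower and 20.6% higher. The members' median log2 change was -0.16, against -0.01 over all genes tested. The 2 groups of libraries did not overlap for 24 members with siMCT4 lower and for 10 with siMCT4 higher, against 27.8% and 27.2% of all genes tested (55% in either direction). With the GC correction, 23 members were lower and 6 higher, where 20% and 22.8% of all genes were. Scaled to TPM, where the length-corrected values of every library have the same sum, 17 members were lower and 17 higher (limma), where 11.2% and 24.3% of all genes were lower and higher and the median over all genes stood at 0.11 on the log2 scale. Before that scaling, FPKM summed to 249973 to 250978 in control libraries and 232847 to 236645 in siMCT4 libraries. The members' median on the TPM scale was 0.03, below that of all genes on the same scale. Both medians were higher there than in the edgeR fit. Without siMCT4 library 3, 14 members were called higher and 23 lower, while the shares of all genes tested were 23.5% higher and 23.1% lower. Without control library 1 or siMCT4 library 1, 4 members were called higher, against 16.6% and 16.7% of all genes. In RNA from whole cultures, fewer cells of a kind and less RNA per cell cannot be told apart.

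Counts and medians are given by complex, and a difference between complexes was not tested. All 5 genes of eEF1 and eEF2 were lower, with a median log2 change of -1.16, and 9 of 13 eIF3 genes were lower and none higher, with a median of -0.43. The 11 eIF4 genes had a median of 0.04, with 2 lower and 1 higher, and the eIF2, eIF2A and eIF2B genes split into 4 lower and 4 higher of 9. Together the 46 genes took 2.13 ± 0.0623% of all counts in controls and 1.43 ± 0.109% in siMCT4 (SD, n = 3). Of this, eEF1 and eEF2 took 1.27 ± 0.0550% in controls and 0.642 ± 0.0814% in siMCT4, while the eIF4 genes took 0.364 ± 0.000428% and 0.366 ± 0.0132%. These shares are of deposited counts, without TMM scaling. With it, the eIF4 genes summed to 3749 ± 4.89 CPM in controls and 3552 ± 118 CPM in siMCT4. The eEF1 and eEF2 genes then summed to 13118 ± 549 and 6237 ± 775 CPM.

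**Figure D1:**
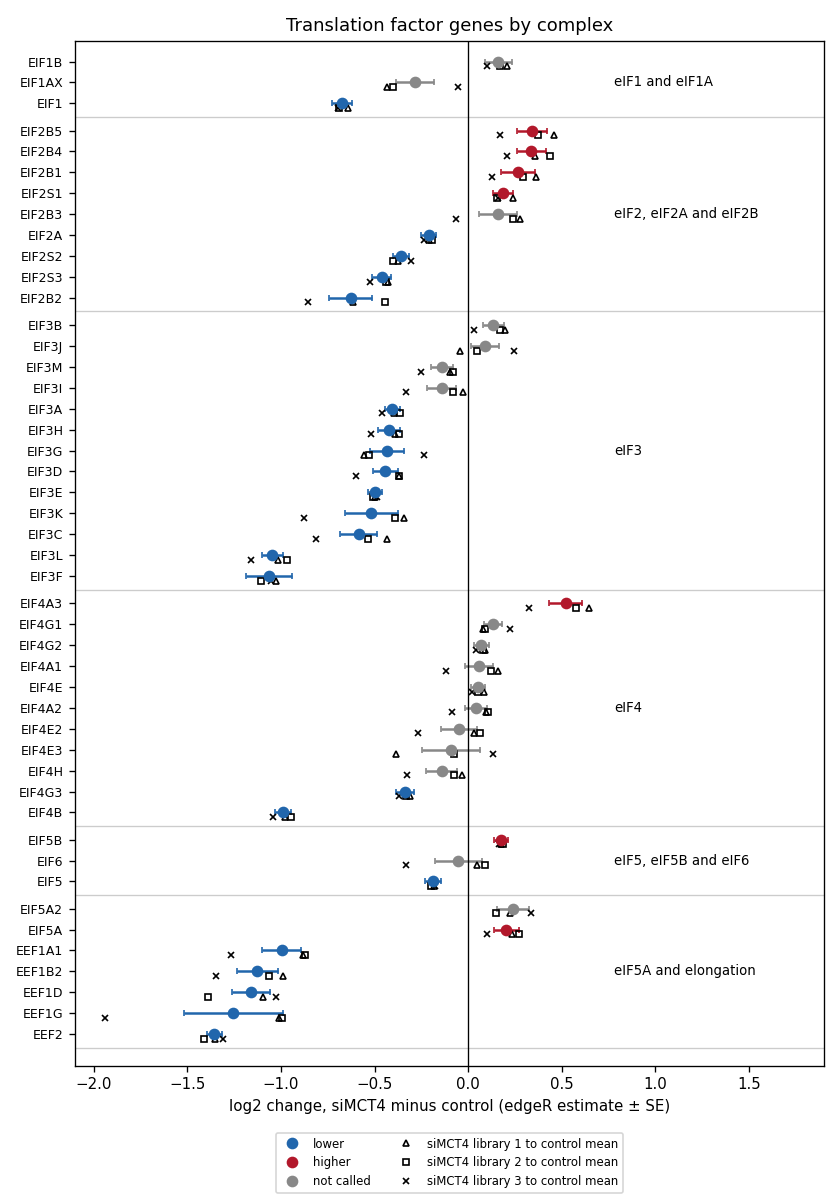
The log2 change of each of the 46 genes is drawn by complex, as the edgeR estimate with its standard error (large points), with the log2 ratio of each siMCT4 library to the control mean (small symbols). Elongation factors sit near or below -1, eIF3 genes are mostly below 0, and eIF4 genes other than EIF4B, EIF4G3 and EIF4A3 lie close to 0.

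EEF1A1 and EEF2 were the most abundant members in both groups, and the 4 lowest log2 changes among the members were those of EEF2, EEF1G, EEF1D and EEF1B2. EEF2, the translocase, stood at 2494, 2544 and 2516 CPM in control libraries 1, 2 and 3 and at 988, 946 and 1017 CPM in siMCT4 libraries 1, 2 and 3. The groups were far apart, with siMCT4 at 39.1% of control (log2 change -1.36 ± 0.0407 SE, adjusted p = 8.71e-07). EEF1A1, which delivers aminoacyl-tRNA, stood at 9200.3, 9832 and 10194 CPM across the controls, against 5281, 5321 and 4049 CPM in siMCT4. Its siMCT4 level was 50.1% of control (log2 change -0.996 ± 0.105 SE, adjusted p = 0.000278), and siMCT4 library 3 was the lowest.

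The 3 genes of eEF1B, the exchange complex that serves eEF1A, also fell. EEF1B2, the alpha-type exchange subunit, read 153, 155 and 181 CPM in controls and 82.3, 78.0 and 64.1 CPM in siMCT4 (log2 change -1.13 ± 0.108 SE, adjusted p = 0.000171). EEF1D, a second exchange subunit, read 125, 137 and 142 CPM in controls and 63.2, 51.4 and 66.2 CPM in siMCT4 (log2 change -1.16 ± 0.101 SE, adjusted p = 0.000104). In both genes every siMCT4 library lay below every control library. EEF1D and EEF2 are rich in G and C (60.6% and 59.9%), and with the GC correction their log2 changes were -0.86 and -1.10, still called lower.

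EEF1G, the structural subunit of eEF1B, varied most between libraries of a group: it read 608, 429 and 643 CPM in controls and 278, 281 and 146 CPM in siMCT4 (log2 change -1.25 ± 0.264 SE, adjusted p = 0.00741). On the same strand the table lists an overlapping gene, ENSG00000255508, whose counts were 244, 13083 and 697 across the controls and 1754, 1994 and 8106 across siMCT4. Its high counts fall in control library 2 and siMCT4 library 3, the same libraries in which EEF1G was lowest of its group. Added together, the 2 genes reached 40989, 40490 and 41297 counts among controls and 19484, 21536 and 18441 counts among siMCT4 libraries, and the log2 ratio of the mean CPM of the sum was -1.12. EEF1A1 likewise shares sequence with 22 listed pseudogenes. EEF1A1 and the pseudogenes together had a log2 ratio of mean CPM of -0.98, close to that of EEF1A1 alone.

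**Figure D2:**
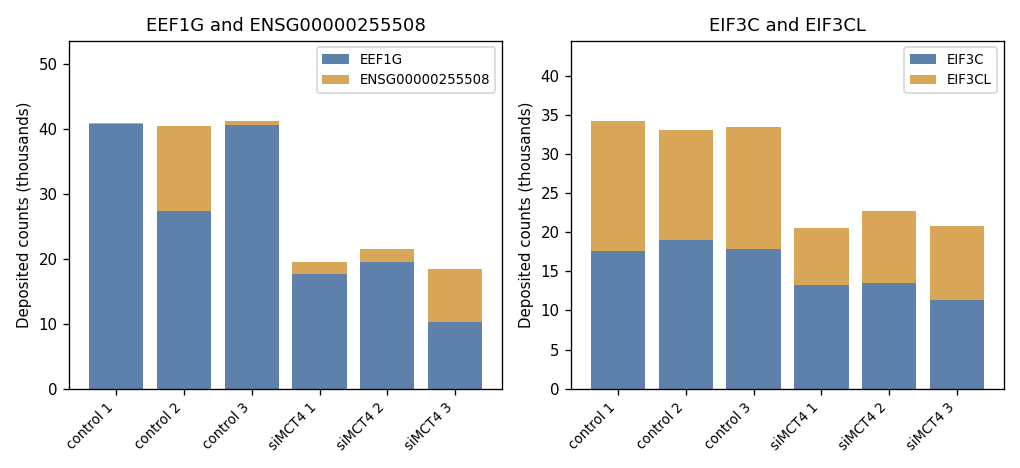
Bars give the deposited counts per library of EEF1G with its overlapping gene (left) and of EIF3C with its near-identical copy EIF3CL (right), stacked so that the top of each bar is their sum. The split between EEF1G and ENSG00000255508 differs between libraries of a group, while the sum is 40490 to 41297 counts in controls and 18441 to 21536 counts in siMCT4.

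The genes of eIF5A, which carries hypusine and helps ribosomes past slow stretches and at termination, were not among the lower ones. EIF5A read 65.8, 60.7 and 68.5 CPM in controls and 76.4, 78.5 and 69.7 CPM in siMCT4 (log2 change 0.20 ± 0.0684 SE, adjusted p = 0.0474). The groups did not overlap, but siMCT4 library 3 lay close to control library 3, and the call was lost when either of siMCT4 libraries 1 and 2 or any control library was left out (adjusted p from 0.0548 to 0.125). With the GC correction the EIF5A change was 0.35 (adjusted p = 0.00401), and on the TPM scale 0.40 (adjusted p = 0.00277). EIF5A2, its low-level relative, read 15.7, 15.2 and 14.3 CPM in controls and 17.6, 16.6 and 19.0 CPM in siMCT4, with an adjusted p of 0.0610.

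**Figure D3:**
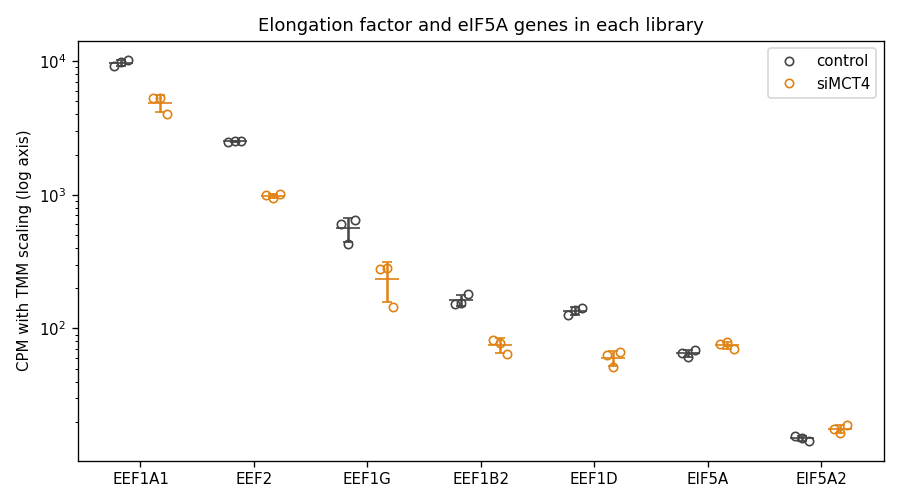
CPM of the 5 elongation factor genes and the 2 eIF5A genes in each library on a log axis, with circles for libraries and bars for the group mean and SD (n = 3). All 5 elongation factor genes lie lower in every siMCT4 library than in any control library, and the 2 eIF5A genes do not.

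Of the 13 eIF3 genes, 9 were lower, with log2 changes from -1.06 to -0.41. EIF3L, an outer subunit, read 298, 297 and 287 CPM in controls and 146, 150 and 131 CPM in siMCT4 (log2 change -1.05 ± 0.0579 SE, adjusted p = 1.26e-05). EIF3F, which pairs with EIF3H and EIF3M in the octameric core, read 62.9, 47.4 and 45.9 CPM in controls and 25.6, 24.2 and 25.1 CPM in siMCT4 (log2 change -1.06 ± 0.122 SE, adjusted p = 0.000416). For both genes siMCT4 was near 48% of control (48.5% and 47.9%), with no overlap of the groups.

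The other eIF3 falls were smaller. EIF3E, a core subunit, read 406, 406 and 409.7 CPM in controls and 288, 286 and 291 CPM in siMCT4, with the smallest standard error of the complex (log2 change -0.50 ± 0.0355 SE, adjusted p = 4.08e-05). EIF3A, the largest subunit and the scaffold of the complex, read 628, 635 and 629.6 CPM in controls and 479.98, 490.0 and 459 CPM in siMCT4 (log2 change -0.41 ± 0.0400 SE, adjusted p = 0.000197). EIF3H was at 74.6% of control and EIF3D, which can bind the cap of some mRNAs, at 73.6%. Library by library, siMCT4 library 3 was the lowest siMCT4 library for EIF3A, EIF3D and EIF3H.

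EIF3C, a core subunit, has a near-identical copy in the table, EIF3CL, between which counting could split reads. EIF3C read 263, 297 and 282 CPM in controls and 208, 194 and 160.0 CPM in siMCT4 (log2 change -0.59 ± 0.0976 SE, adjusted p = 0.00251). Counts of EIF3CL were 16613, 14110 and 15620 across the controls and 7312, 9251 and 9447 across siMCT4. The 2 together had a log2 ratio of mean CPM of -0.73.

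Some eIF3 calls were less firm. EIF3G, which binds the mRNA channel of the small subunit, read 122, 125 and 132 CPM in controls and 85.9, 87.7 and 107 CPM in siMCT4 (log2 change -0.43 ± 0.0891 SE, adjusted p = 0.00669). It is 60.3% GC, siMCT4 library 3 stood nearer to the controls, and with the GC correction the log2 change was -0.15 with an adjusted p of 0.0547. On the TPM scale it was -0.24 with an adjusted p of 0.0939. EIF3K, an outer subunit that pairs with EIF3L, read 96.0, 98.1 and 114 CPM in controls and 81.2, 78.3 and 56.1 CPM in siMCT4 (log2 change -0.52 ± 0.143 SE, adjusted p = 0.0232). Its adjusted p was 0.0530 and 0.0835 without control library 2 or 3, and without siMCT4 library 3 the log2 change was -0.34. The EIF3K call was also lost on the log2(FPKM + 1) scale (adjusted p = 0.0625) and the TPM scale (adjusted p = 0.130).

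The 4 eIF3 genes called in neither direction by the edgeR test without GC correction were EIF3B, EIF3I, EIF3J and EIF3M. EIF3B, a subunit with a propeller fold, had a log2 change of 0.14 with an adjusted p of 0.104, and with the GC correction it was called higher (0.23, adjusted p = 0.00605). EIF3I, its partner, had -0.14 with an adjusted p of 0.196. EIF3J, a loosely bound subunit, had 0.09 with an adjusted p of 0.385. On the TPM scale EIF3J (0.28, limma adjusted p = 0.0308) and EIF3B (0.33, adjusted p = 0.00526) were called higher. EIF3M had -0.14 with an adjusted p of 0.0892, and its libraries did not overlap, with siMCT4 the lower. With the GC correction EIF3M was called lower (-0.22, adjusted p = 0.0418).

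In the eIF4 group, the cap-binding core did not pass the edgeR test. EIF4E, the cap-binding protein, read 147, 146 and 146 CPM in controls and 155, 151 and 148 CPM in siMCT4, a log2 change of 0.05 ± 0.0400 SE with an adjusted p of 0.334. EIF4G1, the scaffold that joins cap, helicase and eIF3, read 720.4, 702 and 693 CPM in controls and 745, 749.7 and 824 CPM in siMCT4 (log2 change 0.13 ± 0.0501 SE, adjusted p = 0.0707). Every siMCT4 library lay above every control library for both genes. EIF4G1 was called higher with the GC correction (0.28, adjusted p = 0.00273) and without siMCT4 library 3 (0.11, adjusted p = 0.0220). The helicase genes EIF4A1 and EIF4A2 had log2 changes of 0.06 and 0.04 with adjusted p of 0.564 and 0.608. Without siMCT4 library 3 these became 0.17 and 0.13, with adjusted p of 0.00472 and 0.0187. On the TPM scale, EIF4E, EIF4G1, EIF4A1 and EIF4A2 were called higher (limma, adjusted p from 0.00266 to 0.0384), as were 24.3% of all genes. EIF4A1 overlaps 2 listed genes on its strand, ENSG00000264772 and SENP3-EIF4A1, and the 3 together had a log2 ratio of mean CPM of 0.04.

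EIF4B was the exception in its group. It encodes an RNA-binding cofactor of the eIF4A helicase and read 516, 511 and 523 CPM in controls and 262, 268 and 250.5 CPM in siMCT4. That is 50.4% of control, with no overlap (log2 change -0.99 ± 0.0416 SE, adjusted p = 3.94e-06). EIF4H, which acts on eIF4A in a like way, had a log2 change of -0.14 with an adjusted p of 0.219. EIF4G3, a relative of EIF4G1, read 276, 258 and 252 CPM in controls and 211, 209 and 203 CPM in siMCT4 (log2 change -0.34 ± 0.0481 SE, adjusted p = 0.00121). The EIF4G3 call was lost on the TPM scale (-0.13, adjusted p = 0.0858). EIF4A3, an eIF4A-like helicase that belongs to the exon junction complex and not to cap recognition, moved the other way, from 47.1, 49.1 and 51.6 CPM to 76.9, 73.5 and 61.7 CPM (log2 change 0.52 ± 0.0884 SE, adjusted p = 0.00269). EIF4G2, which works without the cap, had 0.07 on the log2 scale (adjusted p = 0.196). It was called higher without siMCT4 library 3 (0.11, adjusted p = 0.0345). EIF4E2 and EIF4E3, the other cap-binding relatives, had log2 changes of -0.05 and -0.09 with adjusted p of 0.728 and 0.672.

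The genes of eIF2 itself split. EIF2S3, the gamma subunit that binds GTP and the initiator tRNA, read 277, 298 and 273 CPM in controls and 210.1, 209 and 197 CPM in siMCT4 (log2 change -0.46 ± 0.0510 SE, adjusted p = 0.000341). EIF2S2, the beta subunit, read 270.5, 274 and 279 CPM in controls and 212, 208 and 222 CPM in siMCT4 (log2 change -0.36 ± 0.0426 SE, adjusted p = 0.000486). EIF2S1, the alpha subunit whose phosphorylation slows initiation, read 78.9, 81.1 and 87.0 CPM in controls and 97.1, 91.8 and 92.0 CPM in siMCT4 (log2 change 0.19 ± 0.0545 SE, adjusted p = 0.0292). The call for EIF2S1 did not hold with the GC correction (0.11, adjusted p = 0.159). It was also lost without control library 1 or 2 or siMCT4 library 1 (adjusted p from 0.0730 to 0.0758). EIF2A, a separate factor that can bring initiator tRNA to some mRNAs, read 135, 137 and 136 CPM in controls and 118, 119 and 115 CPM in siMCT4 (log2 change -0.21 ± 0.0399 SE, adjusted p = 0.00448). On the TPM scale, where the median over all genes was also higher, the EIF2A change was -0.01 with an adjusted p of 0.868. On the log2(FPKM + 1) scale the EIF2A change was -0.10 with an adjusted p of 0.0895.

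Among the 5 subunits of eIF2B, 3 were higher and 1 lower. EIF2B2, the beta regulatory subunit, read 41.3, 43.8 and 48.0 CPM in controls and 28.98, 32.6 and 24.5 CPM in siMCT4 (log2 change -0.63 ± 0.113 SE, adjusted p = 0.00351). EIF2B5, the catalytic epsilon subunit, read 45.7, 45.4 and 42.8 CPM in controls and 61.3, 57.9 and 50.3 CPM in siMCT4 (log2 change 0.34 ± 0.0806 SE, adjusted p = 0.0125). EIF2B4, the delta subunit, read 25.9, 27.9 and 27.8 CPM in controls and 34.9, 36.9 and 31.4 CPM in siMCT4 (log2 change 0.34 ± 0.0782 SE, adjusted p = 0.0112). For both, siMCT4 library 3 was the siMCT4 library nearest to the controls. EIF2B1, the alpha subunit, read 24.8, 27.6 and 23.7 CPM in controls and 32.7, 31.0 and 27.8 CPM in siMCT4 (log2 change 0.27 ± 0.0902 SE, adjusted p = 0.0498). With the GC correction its adjusted p was 0.0519. It ran from 0.103 to 0.150 without control library 1 or 3 or siMCT4 library 1 or 2. EIF2B3, the gamma subunit, had a log2 change of 0.16 with an adjusted p of 0.257, and without siMCT4 library 3 it was called higher (0.28, adjusted p = 0.00990).

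EIF1, which guards start codon choice, read 384, 414 and 433 CPM in controls and 263, 255 and 254 CPM in siMCT4 (log2 change -0.67 ± 0.0524 SE, adjusted p = 6.16e-05). EIF1B, its close relative, read 57.5, 63.0 and 68.5 CPM in controls and 72.8, 71.0 and 67.5 CPM in siMCT4 (log2 change 0.16, adjusted p = 0.117). The EIF1B groups overlapped. It was called higher without control library 3 (adjusted p = 0.0479) or siMCT4 library 3 (adjusted p = 0.0411). EIF1AX, which binds the decoding site of the scanning ribosome, read 58.0, 58.5 and 57.4 CPM in controls and 43.0, 44.0 and 55.8 CPM in siMCT4 (log2 change -0.29, adjusted p = 0.0578). siMCT4 library 3 lay near the controls for this gene. EIF1AX was called lower without that library (-0.39, adjusted p = 0.000254) and with the GC correction (-0.37, adjusted p = 0.00490).

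EIF5, which makes eIF2 hydrolyse GTP at the start codon, read 332, 316 and 305 CPM in controls and 279.7, 277 and 281 CPM in siMCT4 (log2 change -0.19 ± 0.0446 SE, adjusted p = 0.0126). Its adjusted p rose to between 0.0683 and 0.0792 without control library 1 or 2 or siMCT4 library 1 or 2. On the TPM scale the EIF5 value turned positive (0.01, adjusted p = 0.844), and on the log2(FPKM + 1) scale it was -0.08 (adjusted p = 0.243). EIF5B, which joins the ribosomal subunits, read 164, 169.8 and 166 CPM in controls and 188, 189.6 and 186 CPM in siMCT4 (log2 change 0.18 ± 0.0387 SE, adjusted p = 0.00875). With the GC correction the EIF5B change was 0.10 with an adjusted p of 0.0975. EIF6, which keeps free large subunits apart from small ones, read 41.3, 48.9 and 48.9 CPM in controls and 48.0, 49.4 and 36.9 CPM in siMCT4, and the groups overlapped (log2 change -0.05, adjusted p = 0.772).

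On the deposited FPKM scale, which divides by gene length, EEF1A1 was the most abundant member in controls at 867 ± 43.2 FPKM. It was followed by EEF2 at 561 ± 10.8, EEF1G at 189.7 ± 37.1 and EIF1 at 101 ± 5.81 FPKM. In siMCT4 the order of the first 2 was the same, at 469 ± 70.3 FPKM for EEF1A1 and 236 ± 8.33 FPKM for EEF2. The scarcest member in both groups was EIF4E3, at 0.635 ± 0.0425 FPKM in controls and 0.642 ± 0.113 FPKM in siMCT4 (SD, n = 3). The length that the FPKM values imply for EIF3E was 20.4 times that of its longest listed transcript, and for EIF3I 7.03 times, against a median of 1.48 over well-covered genes, so FPKM levels of those 2 genes cannot be set against the others. The fold changes are not touched, since the length is the same in every library.

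**Figure D4:**
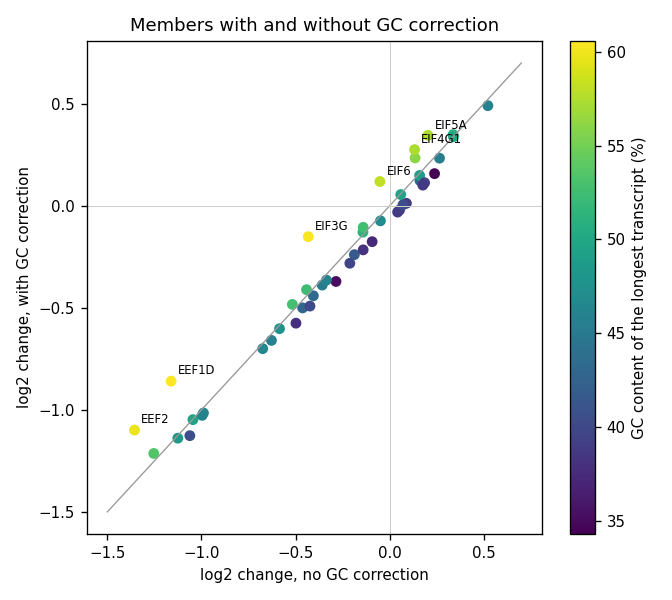
Each point is a member, with its log2 change without (horizontal) and with (vertical) the correction for GC content, coloured by the GC content of its longest transcript. EEF2, EEF1D, EIF3G, EIF6, EIF4G1 and EIF5A, all rich in G and C, lie above the diagonal, and EEF2 and EEF1D remain near -1.

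RefSeq entries for annotated starts were found for 39 of the 46 genes. The search was for a C at the first transcribed base followed by at least 4 bases that are each C or T, on the gene's own strand at that position only. It matched in 11 members: EEF1A1, EEF1B2, EEF2, EIF2A, EIF2S3, EIF3D, EIF3F, EIF3K, EIF3M, EIF4A2 and EIF4B. A gene was counted as matching if any of its entries matched. EEF1B2 also has an entry, not printed above, that carries no tract. Of all 35116 entries, 4.07% match, and 5.14% of 27305 genes have a matching entry. Of the 11 members with a tract, 9 were lower, none higher and 2 not called, with a median log2 change of -0.52. Of the 28 with an entry and no tract, 6 were lower, 7 higher and 15 not called, with a median of 0.07. In siMCT4 libraries 1, 2 and 3, the 11 had median log2 ratios to the control mean of -0.43, -0.44 and -0.87. The 28 had 0.08, 0.08 and 0.03.

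Other genes were counted in the same way. Among 867 tested genes with a tract, 37.8% were lower and the median log2 change was -0.20, and among 11477 without one, 23.2% were lower with a median of 0.01. Without the ribosomal protein genes and the members, 33.7% of 809 genes with a tract were lower. Of the 47 ribosomal protein genes with a tract, 46 were lower, with a median of -0.85. Of all 66 tested ribosomal protein genes with an entry, with or without a tract, 59 were lower, with a median of -0.83. The fall in ribosomal protein genes was therefore not limited to those with a tract. A tract did not sort the members fully. EIF4A2 carries 1 and had a log2 change of 0.04, while EEF1G and EIF1 carry none at the listed starts and were lower. EEF1G is nonetheless listed below as a known TOP mRNA, so a missing match at a listed start does not make a gene non-TOP. EEF1D, EIF2S2, EIF3A, EIF3E, EIF3G, EIF3H and EIF3L had no entry and so stand outside this comparison. All 7 were lower, with a median log2 change of -0.43.

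Known TOP mRNAs were counted as well. The 9 members listed as known TOP mRNAs (EEF1A1, EEF1B2, EEF1D, EEF1G, EEF2, EIF3E, EIF3F, EIF3H and EIF4B) were all lower, with a median log2 change of -1.06. Of the other 37, 13 were lower and 7 higher, with a median of -0.05. Of all genes tested, 20.8% were lower. The list was set with earlier results of these data known, so its count is a description and not a test. It leaves out members with a tract at an annotated start, among them EIF3M and EIF4A2, which were not called. A match to the tract is a description of the annotated start, and the start used in these cells was not measured.

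**Figure D5:**
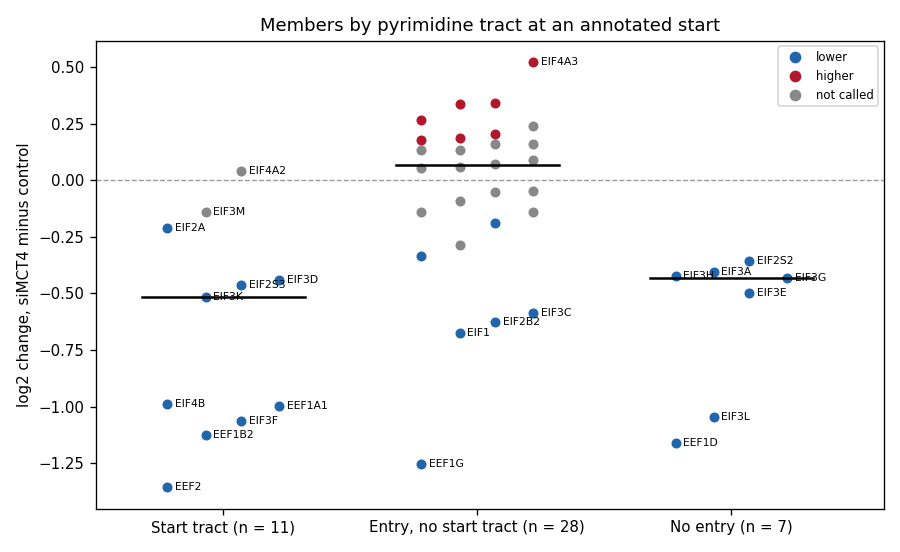
Log2 change of each member, split by whether a pyrimidine tract stands at an annotated RefSeq start, with the median of each set as a bar and the call as colour. All but EIF3M and EIF4A2 of the 11 with a tract were called lower, and the 7 members called higher are all among the 28 with an entry and no tract.

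Genes related to these factors were followed as 8 lists, to be read against the 41.4% of all tested genes called in either direction. Among 9 genes that act on the cap-binding step, 5 were lower and 1 higher. EIF4EBP1, which holds eIF4E away from eIF4G until mTORC1 phosphorylates it, averaged 40.8 ± 2.49 CPM among controls and 11.5 ± 2.47 CPM among siMCT4 libraries (SD, n = 3). Its log2 change was -1.83 ± 0.149 SE (adjusted p = 7.73e-05), and with the GC correction -1.20. EIF4EBP2, of the same family, had -0.50 (adjusted p = 0.000312), and EIF4ENIF1, which carries eIF4E into the nucleus, had 0.57 (adjusted p = 0.000416). Without control library 1 or 2 or siMCT4 library 1, 3 of this list passed the test.

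Among the 6 genes of eIF2 kinases and phosphatase subunits, 4 were higher and 1 lower. EIF2AK2, the double-stranded RNA-activated kinase PKR, rose from 100.3 ± 4.95 to 252 ± 12.9 CPM (log2 change 1.33 ± 0.0580 SE, adjusted p = 4.64e-06). The phosphatase subunits moved apart: PPP1R15B, the constitutive one, reached 0.68 on the log2 scale (adjusted p = 0.000118), and PPP1R15A, the stress-induced one, had -0.83 (adjusted p = 0.000178). Phosphorylation of eIF2 was not measured.

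Of the 5 poly(A)-binding protein genes and partners, 3 were lower and none higher. PABPC1, which joins the mRNA tail to eIF4G, went from 1567 ± 68.7 to 1168 ± 79.5 CPM (log2 change -0.42, adjusted p = 0.00108), PABPC4 had -0.85 (adjusted p = 5.18e-06) and PAIP2, an inhibitor of PABPC1, had -0.24 (adjusted p = 0.0122). Of 8 tested termination and recycling genes, 4 were lower and none higher. DENR, which helps remove tRNA and reinitiate, had -0.85 (adjusted p = 1.13e-05), HBS1L, a rescue factor, had -0.55 (adjusted p = 0.000101), and EIF2D, which acts like DENR, had -0.45 (adjusted p = 0.00215).

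Of 4 scanning helicase genes, 3 were higher and none lower, with DHX29 at 0.44 (adjusted p = 0.00204), DDX3X at 0.25 (adjusted p = 0.00313) and DHX36 at 0.30 (adjusted p = 0.00391). The list of mTORC1 and S6 kinase genes had 2 higher and 2 lower of 10, a share close to that of all genes. MLST8, a subunit of the mTOR complexes, had -1.53 (adjusted p = 6.97e-05), or -0.96 with the GC correction. RPS6KB1, an S6 kinase gene, had 0.61 (adjusted p = 0.000155), and TSC2, a brake on mTORC1, had -0.74 (adjusted p = 0.00225), or -0.45 with the GC correction. TSC1, of the same brake, was called higher (0.19, adjusted p = 0.0179). The other S6 kinase gene, RPS6KB2, had -0.21 with an adjusted p of 0.0828. MTOR itself had -0.07 with an adjusted p of 0.351, a value that turned positive on the FPKM and TPM scales.

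Among 15 tested genes that modify eIF5A, eEF1A or eEF2, 3 were higher and 1 lower, a smaller share than among all genes. The eEF1A lysine methyltransferase EEF1AKMT3 had 0.85 (adjusted p = 0.000580), EEF1AKMT4 had 1.52 from 2.17 ± 0.0748 to 6.23 ± 1.10 CPM (adjusted p = 0.000444), and DNAJC24, of the diphthamide pathway that modifies eEF2, had 0.47 (adjusted p = 0.0110). Without siMCT4 library 3, 8 of this list passed the test in either direction. EEF2K, the kinase that turns eEF2 off, had 0.23 with an adjusted p of 0.138. DHPS, which starts the making of hypusine on eIF5A, had -0.26 with an adjusted p of 0.305. Calls among the 10 mitochondrial translation factor genes were also a smaller share than among all genes. In that list, 2 were higher, MTRF1 (0.45, adjusted p = 0.00638) and GFM2 (0.25, adjusted p = 0.0161), and 1 lower, TUFM (-0.19, adjusted p = 0.0413). Without control library 3, 1 of this list passed the test. TUFM, the mitochondrial counterpart of EEF1A1, had -0.03 with an adjusted p of 0.694 once GC content was corrected for, and its value turned positive on the TPM scale.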

How the data were processed

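Per the labels' protocols, the 6 libraries were made from polyadenylated RNA with dUTP in the second strand and read from both ends. Trimming and alignment tools named in the submitters' processing notes are cutadapt 1.9 and HISAT2 2.2.1, with GRCh38. What counted the reads, with which annotation and strand setting, is not given in the sources used here. The authors deposited 1 gene table with a count and an FPKM column per library, 12 in all per the file headers. The counts are whole numbers, and 59.8% of those from 2 to 41 are even, so 2 counts may stand for 1 fragment. The deposited FPKM equals count over a gene length and a library factor.

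edgeR 4.0.16 (R 4.3.3) fitted the counts by quasi-likelihood with TMM scaling, group as the sole factor and filterByExpr (count 10, total 15), two-sided, with Benjamini-Hochberg adjustment over 19944 genes. Standard errors are the log2 change over the square root of F. The common biological coefficient of variation was 0.219. Alternatives were other scalings and filters, DESeq2 1.42.0, limma 3.58.1 on log2(FPKM + 1), log2(FPKM + 0.1) and log2(TPM + 1), GC and length corrections by loess, a replicate block and leaving out each library. The fit with siMCT4 library 3 alone, the GC-corrected fit without it and a longer pyrimidine tract were added after seeing the data. GC content came from the longest GENCODE transcript of 94.9% of genes. The scripts were tested on simulated counts.

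The members and the lists were chosen with earlier results of these data known. Any member may be named. Levels per library are given for up to 4 members of a complex with the smallest adjusted p, members against the direction of their complex and members whose call moved with GC correction or a left-out library, and other levels were added after values were seen. From related lists, up to 3 called genes with the smallest adjusted p and 6 set genes (EIF4EBP1, EIF2AK2, PABPC1, EEF2K, DHPS, MTOR) are named. TSC1 and RPS6KB2 were added after values were seen. GSPT2 of the termination list did not pass the filter, and EEF1AKNMT of the modifier list was not found under that symbol.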

Additional observations from a re-analysis of the deposited data

How the results depend on the processing

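Of the 29 called members, 18 kept their direction and their side of the threshold in all 21 alternatives. The fit with siMCT4 library 3 alone has 1 library in an arm, which is assumed to vary as the controls do, and 20 members kept both in the other 20 alternatives. Members called lower numbered 17 to 24, and all 5 elongation factors were lower in each alternative. Replicate numbers did not pair the libraries: deviations of same-numbered libraries correlated at -0.0616, -0.00295 and -0.0547. With a replicate block, 4 members were higher and 21 lower, with 3341 genes for all genes called higher and 3580 for all genes called lower; eIF2, eIF2A and eIF2B then had 2 higher and the eIF5A and elongation group 0 higher. The cause of the shifts was not tested.

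The number called higher moved more. It was 13 with limma on log2(FPKM + 1), with a pseudocount of 0.1 and with a mean FPKM of at least 1, 17 with TPM, 4 with siMCT4 library 3 alone, 11 without that library and with GC correction, and 4 to 14 when 1 library was left out (14 without siMCT4 library 3). With the mean FPKM filter, all genes called lower numbered 2759.

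By complex, the 3 FPKM settings gave 1 higher in eIF1 and eIF1A, 1 in eIF3, 4 in eIF4 and 2 in eIF5A and elongation, and 0 lower in eIF5, eIF5B and eIF6. TPM gave 1, 2, 6 and 2 higher in the same order, 1 lower in eIF4 and 0 lower in eIF5, eIF5B and eIF6. GC correction, with or without the replicate block, gave 2 lower in eIF1 and eIF1A, 2 higher in eIF2, eIF2A and eIF2B, 1 higher in eIF3, 2 higher in eIF4 and 0 higher in eIF5, eIF5B and eIF6. Length correction gave 1 higher in eIF1 and eIF1A. Length correction, upper-quartile scaling and a mean CPM of at least 1 each gave 2 higher in eIF4 and 2 higher in eIF5A and elongation, and no filter on low counts gave 0 higher in the latter. siMCT4 library 3 alone gave 0 higher in eIF2, eIF2A and eIF2B, 1 in eIF3, 2 in eIF4 and 0 in eIF5A and elongation, and 0 lower in eIF5, eIF5B and eIF6. Without that library and with GC correction, eIF1 and eIF1A had 2 lower, eIF3 had 1 higher, eIF4 had 3 higher, and eIF5, eIF5B and eIF6 had 2 higher. Calls in the modifier list were 10 in that fit, and mitochondrial factor calls were 5 with TPM and with the mean FPKM filter.

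Leaving out 1 library gave, for eIF1 and eIF1A, 0 to 1 higher and 1 to 2 lower, for eIF2, eIF2A and eIF2B 2 to 5 higher, for eIF3 0 to 1 higher, for eIF4 1 to 5 higher, for eIF5, eIF5B and eIF6 0 to 1 lower, and for eIF5A and elongation 0 to 1 higher. Calls ran from 3 to 6 for cap-binding control, 1 to 4 for mitochondrial factors and 3 to 8 for modifiers of eIF5A, eEF1A and eEF2.

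Some values changed sign, among them EIF5 and TUFM, which were called lower, and MTOR and TUFM, which are not members. With GC correction, alone and with the block, EIF4A2 had -0.03065 and -0.03492, EIF4E -0.02074 and -0.02164, and EIF6 0.1192 and 0.1097 (0.0709 with length correction). On the log2(FPKM + 1) scale EIF4E2 had 0.04586, EIF4E3 0.003917, EIF6 0.04828 and MTOR 0.03589, with a pseudocount of 0.1 they had 0.05328, 0.00327, 0.04969 and 0.0421, and with TPM 0.1401, 0.07114, 0.1411 and 0.1293. TPM also gave EIF3I 0.05308, EIF3M 0.05813, EIF4H 0.05665, EIF5 0.01489 and TUFM 0.01545. siMCT4 library 3 alone gave EIF2B3 -0.04298, EIF4A1 -0.1001, EIF4A2 -0.0645 and EIF4E3 0.1526. Left-out libraries took EIF4E2 from -0.08605 to 0.07408, EIF4E3 from -0.1964 to 0.05613 and EIF6 from -0.1149 to 0.09457. Without siMCT4 library 3 and with GC correction, EIF3J had -0.04671, EIF4E2 0.01091, EIF6 0.2546 and TUFM 0.01603. With a tract of at least 6 pyrimidines after the C, 39.7% of 464 genes were lower.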
